A study of Mus musculus with 18 samples.

Results

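The genes described here are the mouse Zfp genes that were expressed at 1 or more steps of neutrophil formation. They were chosen by 3 conditions applied to the deposited expression table: a symbol that starts with Zfp and a digit, the type protein_coding, and a mean of at least 5 TPM (transcript abundance, a read-based level that is corrected for transcript length and library size) at 1 or more stages. Of 34896 genes in the table, 410 carried a Zfp symbol, 349 of these were typed as protein-coding, and 234 reached the floor. The genes nearest to the floor were Zfp395 and Zfp513 on the inside, with highest means of 5.02 and 5.19 TPM, and Zfp385a and Zfp882 on the outside, with 4.97 and 4.96 TPM. All 4 had their highest mean in GMPs.

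The series followed granulocyte-monocyte progenitors (GMPs), the bone marrow progenitors of neutrophils and monocytes, through pre-neutrophils (preNeu) to mature neutrophils (matNeu). RNA came from wild-type C57BL/6 adults aged 6-12 weeks, in 3 libraries a stage, and the labels do not say whether these came from separate animals, so the tests below measure the spread between the libraries. Cells were sorted by surface proteins, with KIT among the proteins that define GMPs and CXCR2 among those that define matNeu cells. The chromatin lists were of 1 library each: CHD4, the remodelling ATPase of the NuRD complex, in wild-type and Gfi1-/- GMPs (which lack GFI1, a zinc finger repressor of the myeloid lineage), dimethylated histone H3 lysine 4 (H3K4me2, a mark of promoters and enhancers) at the 3 stages, and open chromatin by ATAC-seq, for which the preNeu and matNeu lists were identical and were counted as 1. The stage labels held against the markers. Kit stood at 177 to 194 TPM in GMPs and at 1.62 to 3.89 in matNeu cells, Ltf at 23924 to 27605 in preNeu cells, and Cxcr2 at 3027 to 3976 in matNeu cells. Kit and Cxcr2 encode proteins used in the sort, so they are no independent check. Outside the sort, Mpo was at 31476 to 33396 TPM in GMPs and 1.87 to 7.65 in matNeu cells. Mmp8 was at 5.07 to 10.1 TPM in GMPs and 5831 to 7533 in matNeu cells. The number of genes at 1 TPM or more was 12213 to 12256 in GMPs, 10943 to 11443 in preNeu cells and 10754 to 11056 in matNeu cells, and read counts were not used here, so the depth is unknown. In bulk RNA, fewer cells of a kind and less RNA per cell cannot be told apart.

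The symbol Zfp joins proteins by a fold, not by a task. Most carry arrays of C2H2 fingers, each a short loop held by zinc, that read DNA, and many of those start with a KRAB domain, which binds the corepressor TRIM28 and through it brings SETDB1 and heterochromatin protein to retroelements and to some imprinted genes. A small branch, Zfp36 and its relatives, has CCCH fingers instead, binds AU-rich elements of mRNAs and recruits the CCR4-NOT deadenylase, which shortens the poly(A) tail and starts decay. Neutrophils make inflammatory mRNAs of this kind in large amounts.

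The translated coding sequences showed both branches. A KRAB pattern was found in 131 of the 234 genes (56.0%) and was not found in 103. The pattern asked for 8 of 9 set positions, so a gene without it may still encode a KRAB domain. Members with the pattern are called KRAB members below. The number of C2H2 patterns a protein had a median of 10 and reached 37 in Zfp142, 31 in Zfp236 and 30 in Zfp729b. Zfp36, Zfp36l1, Zfp36l2 and Zfp839 had no C2H2 pattern, and the first 3 were the members with CCCH patterns. The genes lay unevenly in the genome, with 52 on chromosome 7 (22.2% of them, against 9.06% of all protein-coding genes), 37 on chromosome 17 (15.8% against 4.95%) and 25 on chromosome 13 (10.7% against 3.85%). Some share sequence with other genes, Zfp or not: 57 of them shared at least 20% of their 31-base transcript words with other genes. For those the authors' counting may have split reads between genes.

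The letters at the starts of 5 members show genes with opposite courses. Sequences are from RefSeq on GRCm38.p6, read 5′ to 3′ on the gene's strand, and capitals mark matched motifs. The first is a 30-base stretch at chr7:28379267-28379296 (minus strand) before the RefSeq start of Zfp36, the member with the largest increase. It holds a CArG box, the binding site of serum response factor, 49 to 58 bases before that start, which overlaps by 1 base a GC box read in reverse. These bases lie in an exon of a longer annotated transcript.
Zfp36: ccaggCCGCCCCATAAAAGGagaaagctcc
The second and the third are the 250 bases before Zfp36l1 (chr12:80113014-80113263, minus strand) and Zfp773 (chr7:7136756-7137005, minus strand), a CCCH member and a KRAB member with more RNA in matNeu cells. Zfp36l1 has a TATA box at bases 222 to 227 that runs into a reversed CCAAT box at bases 227 to 231, and Zfp773 has a CCAAT box at bases 227 to 231.
Zfp36l1: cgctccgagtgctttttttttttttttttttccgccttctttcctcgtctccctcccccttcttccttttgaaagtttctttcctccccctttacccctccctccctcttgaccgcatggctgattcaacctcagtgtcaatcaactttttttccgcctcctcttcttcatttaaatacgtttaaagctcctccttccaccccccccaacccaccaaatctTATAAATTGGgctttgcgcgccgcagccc
Zfp773: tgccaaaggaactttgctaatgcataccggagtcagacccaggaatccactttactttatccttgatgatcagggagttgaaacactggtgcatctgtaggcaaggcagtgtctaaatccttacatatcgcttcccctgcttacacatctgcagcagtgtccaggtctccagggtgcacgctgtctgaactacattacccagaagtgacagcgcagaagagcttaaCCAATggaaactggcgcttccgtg
The next are the 250 bases before Zfp955a (chr17:33255146-33255395, minus strand), a KRAB member that was listed at 0 in every matNeu library, and before Zfp938 (chr10:82241281-82241530, minus strand), which was almost lost by the preNeu stage. Zfp955a has CCAAT boxes at bases 33 to 37 (reversed), 188 to 192 and 225 to 229, and its neighbour Zfp955b has the same 250 letters. Zfp938 has a CCAAT box at bases 186 to 190 and a reversed ETS site at bases 233 to 239.
Zfp955a: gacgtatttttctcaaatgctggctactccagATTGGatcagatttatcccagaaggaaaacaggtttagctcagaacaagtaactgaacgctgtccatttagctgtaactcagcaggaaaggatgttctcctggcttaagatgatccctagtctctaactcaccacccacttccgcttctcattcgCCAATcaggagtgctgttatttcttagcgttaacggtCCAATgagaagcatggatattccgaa
Zfp938: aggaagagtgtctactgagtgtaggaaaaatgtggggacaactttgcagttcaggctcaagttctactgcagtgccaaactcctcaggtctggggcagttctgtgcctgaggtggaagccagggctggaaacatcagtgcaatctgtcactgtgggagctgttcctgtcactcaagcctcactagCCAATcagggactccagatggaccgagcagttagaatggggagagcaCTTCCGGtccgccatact

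Across the 192 members with an entry in the RefSeq promoter table, CCAAT on either strand of the 250 bases before the start was found in 101 (52.6%), against 34.3% of all 27025 entries and 37.6% of the 6832 other protein-coding genes at the same TPM floor. The share was 61.9% among 113 members with a KRAB pattern and 39.2% among 79 without. A GC box (GGGCGG) was found in 42.7% of members, in 60.2% of the other expressed genes and in 33% of all entries. The ZFP143 site (ACTACAATT) was found in 6 members (3.12%), in 0.790% of the other expressed genes and in 0.392% of all entries. Its letters were shortened after the share of a longer form was seen, so these shares describe a form chosen on these promoters. Against the other expressed genes, sites of the myeloid factors went both ways. C/EBP (TTGCNNAA) was found in 3.65% of members against 7.41% of the others, and SPI1 (GAGGAAGT) in 2.08% against 2.99%. The GFI1 core (AAATCA) was found in 12.0% against 7.49%, and the RUNX site (TGTGGT) in 15.1% against 10.7%. Among all entries the shares were 9.53% for C/EBP, 2.43% for SPI1, 12.7% for the GFI1 core and 14.1% for RUNX. The members were thus close to all entries for the GFI1 core and RUNX. Base composition differed as well, with a median of 53% G or C in members against 60% in the others, and of 10 against 16 CG dinucleotides. Over all entries these medians were 52% and 6. The part of base composition in the shares was not tested. The letters were counted on both strands and a match is a description of the sequence.

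As a body the Zfp genes were highest in GMPs. Their summed level was 5345, 5298 and 5286 TPM in the GMP libraries, 2605, 2921 and 3195 TPM in the preNeu libraries, and 3711, 3298 and 4396 TPM in the matNeu libraries. The matNeu sums rested partly on Zfp36. Without this gene the matNeu libraries held 2753, 2565 and 3060 TPM and the preNeu libraries 2555, 2878 and 3137 TPM, so the ranges of these stages overlapped and both lay below the GMP libraries, which held 5259 to 5324 TPM. The median Zfp gene was at 14.5 to 14.8 TPM in the GMP libraries, 6.15 to 7.70 in preNeu and 4.10 to 5.38 in matNeu. The members at 0 numbered 0 to 2 in a GMP library, 1 to 4 in a preNeu library and 16 to 22 in a matNeu library. These are the same levels that chose the genes, and 226 of the 234 reached 5 TPM in GMPs. TPM sums also depend on the rest of each library. The 10 highest genes held 9.15% to 9.78% of TPM in GMP libraries, 24.1% to 28.3% in preNeu and 12.7% to 15.9% in matNeu.

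**Figure D1:**
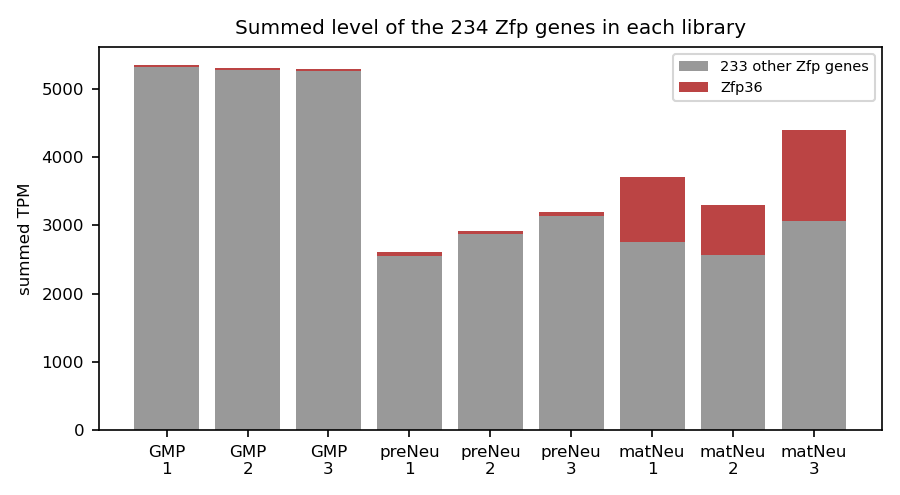
Summed TPM of the 234 Zfp genes (vertical axis) in each of the 9 RNA libraries (horizontal axis, named by stage and replicate), with the share of Zfp36 in red and the other 233 genes in grey. The grey bars of the 3 GMP libraries reach 5259 to 5324 and those of the preNeu and matNeu libraries 2555 to 3137 TPM.

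The stage with the highest mean was GMP for 175 genes (74.8%), preNeu for 11 (4.70%) and matNeu for 48 (20.5%). Among the 8599 other protein-coding genes chosen by the same floor, these shares were 57.7%, 16.2% and 26.1%. A mean of at least 5 TPM at all 3 stages was kept by 100 Zfp genes (42.7%, against 60.3% of the others), and 80 (34.2%, against 10.6%) reached it only in GMPs. Only 5 Zfp genes reached it in matNeu cells alone and 1 in preNeu cells alone. In matNeu cells 58 Zfp genes (24.8%) had a mean under 1 TPM, against 11.7% of the others. These are counts of the same levels that chose the genes, and no test was made of them.

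The stage comparisons were made by limma on log2(TPM + 1) over the 13061 genes that reached 1 TPM in 3 or more libraries, with Benjamini-Hochberg adjustment over all of them and a threshold of 0.05. A change on this scale understates the change of low genes. All 234 members passed that filter, but a member that reached 5 TPM through 1 stage had to be lower elsewhere. Counts of members are therefore a description, and adjusted p-values are given below only for genes whose mean was at least 5 TPM at each stage, or for genes that are no members. The comparisons share libraries with one another. In TPM, moreover, the median of all tested genes itself moved, by -0.52 from GMP to preNeu, -0.32 from preNeu to matNeu and -0.92 from GMP to matNeu, and the median Zfp gene by -1.06, -0.52 and -1.57, which is -0.54, -0.20 and -0.64 relative to all tested genes.

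From GMPs to preNeu cells, 145 Zfp genes (62.0%) were called lower and 9 (3.85%) higher. Of all tested genes 44.3% were called lower and 14.7% higher, and of the other protein-coding genes at the floor 48.7% and 17.6%. From preNeu to matNeu cells, 89 Zfp genes (38.0%) were called lower and 41 (17.5%) higher, against 39.8% and 22.9% of all tested genes and 48.3% and 23.3% of the others at the floor. From GMPs to matNeu cells the counts were 164 lower (70.1%) and 26 higher (11.1%), against 54.1% and 22.8% of all tested genes and 60.5% and 23.9% of the others at the floor. With every library centred on its median, these counts became 89 lower and 33 higher, 37 lower and 86 higher, and 98 lower and 81 higher, and the median Zfp gene changed by -0.43, 0.25 and -0.17. These were 38% and 14.1%, 15.8% and 36.8%, and 41.9% and 34.6% of the Zfp genes. Of all tested genes, 24.2% were then lower and 29.3% higher, 24.9% and 42.3%, and 31.1% and 46.1%. All tested genes then had medians of 0.11, 0.45 and 0.47. With upper-quartile scaling the counts were 102 lower and 20 higher, 66 lower and 59 higher, and 122 lower and 57 higher. The Zfp shares were 43.6% and 8.55%, 28.2% and 25.2%, and 52.1% and 24.4%. All tested genes had 28.8% and 22.6%, 33% and 31.1%, and 41.5% and 34.8%. Rescaled to protein-coding genes the counts were 111 lower and 19 higher, 114 lower and 36 higher, and 154 lower and 34 higher. The Zfp shares were 47.4% and 8.12%, 48.7% and 15.4%, and 65.8% and 14.5%. All 10755 genes tested there had 33.3% and 22%, 47% and 20%, and 53.4% and 24.5%.

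**Figure D2:**
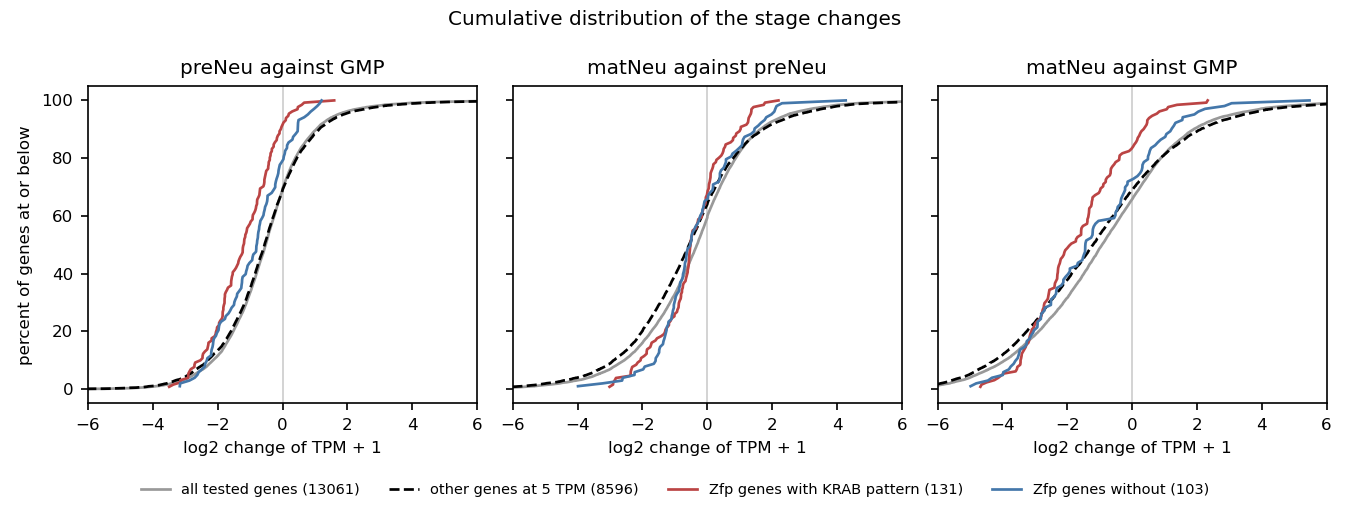
Percent of genes at or below each log2 change of TPM + 1 (horizontal axis) for the 3 stage comparisons, with all 13061 tested genes in grey, the 8596 other tested protein-coding genes at 5 TPM dashed, and the Zfp genes with (red, 131) and without (blue, 103) a KRAB pattern. The red line lies left of the grey one over most of its course in the outer panels, with medians of -1.19 and -1.87 against -0.52 and -0.92, and the blue line ends at 5.47, the value of Zfp36, in the right panel.

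The members with and without the KRAB pattern are given side by side, and no test was made between them. Those without it may include KRAB proteins that the pattern missed. Of all tested genes, 54.1% were called lower and 22.8% higher from GMPs to matNeu cells, with a median change of -0.92. From GMPs to matNeu cells, 102 of 131 KRAB members were called lower and 9 higher, with a median change of -1.87. Of the 103 others, 62 were called lower and 17 higher, with a median of -1.44. Centred, the counts were 60 lower and 38 higher, and 38 lower and 43 higher, with medians of -0.48 and -0.04. Most of the listed machinery that KRAB proteins use was also called lower in matNeu cells. Of 14 tested KRAB corepressors and silencing partners, 12 were called lower and 1 higher, with a median of -2.23. Centred, 9 were lower and 2 higher, with a median of -0.84. All tested genes were then 31.1% lower and 46.1% higher, with a median of 0.47. Trim28, which encodes the corepressor itself, was at 172, 193 and 230 TPM in GMPs, 54.4, 79.7 and 94.5 in preNeu cells and 5.82, 13.1 and 6.23 in matNeu cells, without overlap between stages, and fell by 4.48 on the log2 scale from GMP to matNeu (SE 0.29, adjusted p = 1.17e-07). Setdb1, the histone H3 lysine 9 methyltransferase of the complex, fell by 1.33 (SE 0.22, adjusted p = 0.000204; 0.06 when libraries were centred on their medians), and Uhrf1, which guides maintenance of DNA methylation, fell by 6.18 (SE 0.16, adjusted p = 2.45e-10). The exception was Atf7ip, the partner that stabilizes SETDB1. It was at 87.4 to 105 TPM in GMPs, 89.7 to 122 in preNeu cells and 187 to 226 in matNeu cells, and rose by 1.04 (SE 0.15, adjusted p = 7.00e-05).

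The CCCH branch moved the other way. Zfp36, which encodes tristetraprolin, was at 21.04, 16.1 and 27.6 TPM in GMPs, at 49.4, 43.0 and 58.4 TPM in preNeu cells and at 959, 733 and 1336 TPM in matNeu cells. No library of a stage overlapped with the next stage, and the mean of 1009 ± 305 TPM (SD, n = 3) made it the most abundant member in matNeu cells by far, ahead of Zfp276 with a mean of 124 TPM. The log2 change was 1.20 from GMP to preNeu (SE 0.24, adjusted p = 0.00147) and 4.27 from preNeu to matNeu (adjusted p = 8.86e-08), and 5.47 over the whole course (SE 0.24, adjusted p = 6.67e-09). Zfp36l2, which encodes a relative with the same fingers, had another course. It was at 36.7, 54.3 and 85.6 TPM in GMPs, 22.6, 24.2 and 31.4 in preNeu cells and 92.3, 101 and 170 in matNeu cells, so the preNeu libraries were the lowest and the matNeu libraries the highest, with no overlap. It fell by 1.08 into preNeu cells (SE 0.31, adjusted p = 0.0117) and rose by 2.14 from there to matNeu cells (adjusted p = 0.000121), for a rise of 1.06 over the whole course (SE 0.31, adjusted p = 0.00906). The fall into preNeu cells lost its call in 3 other scalings (-0.45, -0.60 and -0.70). Zfp36l1 reached the floor through matNeu cells alone. It was at 0, 0.817 and 0.662 TPM in GMPs, 2.86, 1.26 and 0.760 in preNeu cells and 10.2, 7.23 and 11.2 in matNeu cells. Zfp36l3, the fourth gene of the family, was listed at 0 in all 9 libraries.

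In TPM, none of the listed partners and regulators of these proteins was called higher in matNeu cells than in GMPs. Of 18 tested genes listed for mRNA deadenylation, decay and its regulation, 14 were called lower, against 54.1% of all tested genes. Their median was -1.30 (all tested genes: -0.92), and Cnot3, Pan2, Pan3 and Xrn1 were not called in that comparison. The 14 include Elavl1 (-1.50) and Mapkapk2 (-1.35), which the list holds beside the deadenylation and decay factors. With libraries centred on their medians the list split into 3 lower and 6 higher, with a median of 0.10, so its direction depended on the scaling. Cnot1, the scaffold of CCR4-NOT to which tristetraprolin binds, was at 124 to 148 TPM in GMPs and 49.9 to 56.8 in matNeu cells and fell by 1.35 (SE 0.19, adjusted p = 5.42e-05), or changed by 0.05 when centred. Cnot9 fell by 4.19 (SE 0.18, adjusted p = 5.36e-09), and Pabpc1, the poly(A)-binding protein, fell by 2.62 (SE 0.11, adjusted p = 5.55e-09). Of 12 listed mRNAs with AU-rich elements, 9 were tested and all 9 were called higher in matNeu cells than in GMPs. Their median was 4.58, and 22.8% of all tested genes were called higher. Il1b, the mRNA of interleukin-1 beta, was at 0.577 to 2.36 TPM in GMPs, 0.119 to 0.526 in preNeu cells and 1342 to 2237 in matNeu cells. Tnf differed in its course, at 4.22 to 9.18 TPM in GMPs, 41.6 to 49.8 in preNeu cells and 46.8 to 54.4 in matNeu cells, with overlap between the last 2 stages. Of the 3 genes not tested, Csf2 was listed at 0 in all libraries.

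**Figure D3:**
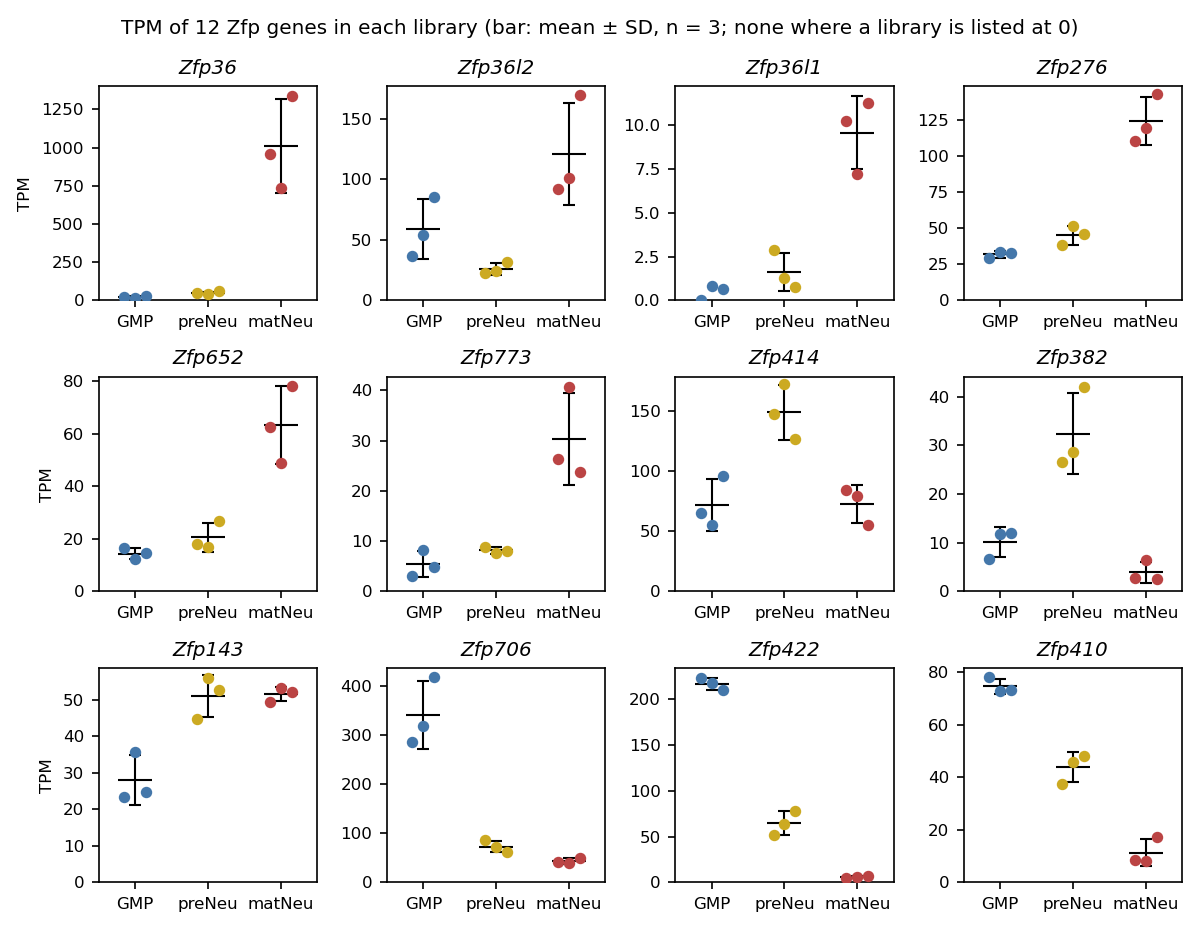
TPM (vertical axis, scaled per panel) of 12 Zfp genes in the 3 libraries of each stage (points), with mean ± SD as bars except where a library was listed at 0. Zfp36, Zfp276, Zfp652 and Zfp773 are highest in all 3 matNeu libraries, Zfp414 and Zfp382 in all 3 preNeu libraries, and Zfp706, Zfp422 and Zfp410 in all 3 GMP libraries.

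Beside the CCCH genes, 23 members were called higher in matNeu cells than in GMPs: Zfp831, Zfp773, Zfp735, Zfp821, Zfp652, Zfp276, Zfp608, Zfp467, Zfp119b, Zfp710, Zfp516, Zfp740, Zfp408, Zfp729a, Zfp949, Zfp281, Zfp143, Zfp971, Zfp746, Zfp943, Zfp236, Zfp959 and Zfp110, in the order of their change. Zfp276 was at 29.2, 33.6 and 33.0 TPM in GMPs, 38.2, 51.2 and 46.0 in preNeu cells and 110, 120 and 143 in matNeu cells. No library overlapped with the next stage, and it rose by 1.92 in all (SE 0.16, adjusted p = 7.95e-07). Zfp652, which encodes a repressor that works with ETO proteins, was at 16.3, 12.3 and 14.5 TPM in GMPs, 18.0, 16.96 and 26.9 in preNeu cells and 62.5, 48.7 and 78.2 in matNeu cells, and rose by 2.04 from GMP to matNeu (SE 0.23, adjusted p = 1.15e-05). Zfp773 was at 3.09, 8.23 and 4.91 TPM in GMPs, 8.86, 7.60 and 8.01 in preNeu cells and 26.4, 40.8 and 23.9 in matNeu cells. Its GMP and preNeu libraries overlapped, and the rise from GMP to matNeu was 2.33 (SE 0.31, adjusted p = 4.35e-05). The call of Zfp735 was uneven: its matNeu libraries held 12.0, 10.2 and 1.26 TPM and its GMP libraries 0, 0.570 and 0.780. Zfp831 was at 0.0260 to 0.253 TPM in GMPs, 0.850 to 1.85 in preNeu cells and 7.88 to 9.40 in matNeu cells. Zfp119b, Zfp729a, Zfp959 and Zfp971 share 25.2% to 62.5% of their 31-base words with other genes, so their levels are uncertain. The last calls of the list rested on single libraries. The call of Zfp110 was lost when GMP replicate 2 or 3 or matNeu replicate 1 or 2 was left out (0.34 to 0.50), that of Zfp959 without GMP replicate 3 or matNeu replicate 1 (0.58 to 0.60), that of Zfp746 without GMP replicate 2 or matNeu replicate 2 or 3 (0.55 to 0.76), and that of Zfp236 without GMP replicate 2 (0.41) or matNeu replicate 1 or 2 (0.61 to 0.65).

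Several of the most abundant members of GMPs fell. Zfp706, a small single-finger protein, was the highest member in GMPs at 285, 318 and 417 TPM, and stood at 85.5, 71.5 and 61.8 in preNeu cells and 41.3, 39.0 and 50.6 in matNeu cells. It fell by 2.20 to preNeu and by 2.92 to matNeu cells (SE 0.18, adjusted p = 7.88e-08 for the latter), with no overlap between stages. Zfp422 was at 223, 218 and 210 TPM in GMPs, 51.6, 64.1 and 78.2 in preNeu cells and 5.09, 5.77 and 7.01 in matNeu cells, which is a fall by 4.98 (SE 0.18, adjusted p = 1.53e-09) and the largest fitted fall among the members. After it came Zfp61 (-4.81), Zfp955b (-4.64) and Zfp991 (-4.49), with means of 30.8, 25.0 and 41.6 TPM in GMPs, of which Zfp955b and Zfp991 share 40.2% and 92.0% of their words with other genes. Zfp35 (a mean of 87.5 TPM) and Zfp263 (101 TPM) were also among the 5 highest in GMPs, and Zfp35 fell by 2.18 (SE 0.20, adjusted p = 2.23e-06), while the change of Zfp263 from GMP to matNeu was -0.14 (adjusted p = 0.669; 1.26 when centred). A set of 7 genes was listed at 0 in all 3 matNeu libraries, and no change into that stage is given for them: Zfp109, Zfp27, Zfp593, Zfp629, Zfp647, Zfp72 and Zfp955a. Zfp955a was at 28.4, 25.2 and 20.7 TPM in GMPs and 4.40, 3.97 and 4.17 in preNeu cells, although 66.0% of its words are shared with other genes. Zfp938 was at 7.77, 6.60 and 12.4 TPM in GMPs but at 0.0737, 0.195 and 0 in preNeu cells and 0, 0.397 and 0 in matNeu cells. The steepest falls from GMP to preNeu beside it were those of Zfp931 (-3.50), Zfp937 (-3.37), Zfp593 (-3.17), Zfp61 (-3.16) and Zfp763 (-3.15). Zfp367 fell later. It was at 42.1, 29.4 and 29.5 TPM in GMPs and 23.1, 29.6 and 26.0 in preNeu cells, with overlap, and at 0.452, 1.32 and 0.486 in matNeu cells.

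A few genes peaked or dipped in between. Zfp414 was at 64.6, 54.7 and 95.6 TPM in GMPs, 147, 172 and 127 in preNeu cells and 84.4, 78.9 and 54.8 in matNeu cells, which made it the highest of the 234 genes in preNeu cells. It rose by 1.07 into that stage (adjusted p = 0.00221) and fell by 1.03 out of it (adjusted p = 0.00232; -0.27 and not called when centred), and its GMP and matNeu libraries overlapped. Zfp382, a KRAB gene, followed at a lower level, with 6.69, 11.8 and 12.0 TPM in GMPs, 26.5, 28.7 and 42.0 in preNeu cells and 2.78, 6.36 and 2.61 in matNeu cells. These were the only 2 members (0.855%) called higher in preNeu cells and then lower in matNeu cells. The reverse course was called for 16 members (6.84%), both calls resting on the same preNeu libraries. Zfp106, which encodes an RNA-binding protein, was one, at 41.3, 49.7 and 61.0 TPM in GMPs, 21.02, 16.2 and 14.6 in preNeu cells and 56.3, 52.5 and 83.8 in matNeu cells, a fall by 1.50 (adjusted p = 0.000226) and a rise by 1.82 (adjusted p = 3.69e-05). Zfp263 and Zfp110 had the same calls, although their fall into preNeu cells was not called when centred (-0.49 and -0.16). They went from ranges of 96.3 to 109 and 67.6 to 79.4 TPM in GMPs to 32.6 to 59.1 and 33.3 to 50.6 in preNeu cells. In matNeu cells they were at 62.3 to 140 and 88.5 to 121 TPM. How often genes outside the members took either course was not counted, so neither course is called particular to Zfp genes.

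By known role, 4 lists of Zfp genes gave further detail, with lower and higher meaning matNeu against GMP. Of all tested genes, 54.1% were called lower and 22.8% higher in that comparison, or 31.1% and 46.1% when centred. Of 13 tested genes with roles in RNA, ribosomes or ubiquitin, members or not, 10 were called lower, with a median of -1.92, and Zfp106, Zfp622 and Zfp638 were not called. Centred on the median, 5 were lower and 3 higher. Zfp593, related to a yeast ribosome export factor, was at 12.7, 25.7 and 27.3 TPM in GMPs, 0.151, 2.66 and 2.39 in preNeu cells and 0 in each matNeu library. Zfp598, the ubiquitin ligase that marks collided ribosomes, was at 6.57 to 9.88 TPM in GMPs, 3.07 to 3.44 in preNeu cells and 0.505 to 2.38 in matNeu cells. Zfp638, linked to silencing of retroviral DNA, was at 47.2 to 78.2, 37.2 to 43.8 and 35.2 to 46.7 TPM and passed no test. All 5 tested imprint and retroelement factors were called lower, with a median of -1.56, but when centred 2 were lower and 1 higher, with a median of -0.16. Zfp445, which protects imprints, was at 51.6 to 68.3 TPM in GMPs, 33.9 to 43.8 in preNeu cells and 16.6 to 30.4 in matNeu cells and fell by 1.22 (SE 0.23, adjusted p = 0.000517), a direction that turned to 0.18 when centred. Zfp568, a KRAB repressor of a placental Igf2 transcript, was at 20.8 to 32.9, 8.87 to 12.8 and 0.379 to 0.575 TPM in the same order. Zfp809, which recognizes a retroviral primer site, was the flattest of them at 38.3 to 51.6, 30.0 to 34.5 and 24.1 to 33.1 TPM, with a fall by 0.51 (SE 0.18, adjusted p = 0.0264), and in 2 other scalings it went the other way (0.89 centred on the median and 0.38 with upper-quartile scaling). Its call was also lost without GMP replicate 2 (-0.37) or without matNeu replicate 1 (-0.36).

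Among 8 tested genes whose proteins work with chromatin cofactors, 3 were called lower and 1 higher, with a median of 0.19 (2 lower and 5 higher when centred). Zfp410, an activator whose main target is Chd4 itself, was at 78.1, 72.8 and 73.3 TPM in GMPs, 37.4, 46.0 and 48.3 in preNeu cells and 8.68, 8.04 and 17.4 in matNeu cells, and fell by 2.69 (SE 0.25, adjusted p = 2.24e-06). Chd4 was at 86.2, 81.6 and 71.4 TPM in GMPs, 36.4, 40.9 and 49.1 in preNeu cells and 33.1, 26.8 and 35.2 in matNeu cells, a fall by 1.31 from GMP to matNeu (SE 0.17, adjusted p = 2.76e-05) that was 0.09 when centred. Zfp410 was still lower by -1.30 under that scaling. Both genes were highest in all 3 GMP libraries, and between preNeu and matNeu cells the change of Chd4 was -0.40 (SE 0.17, adjusted p = 0.0581). Zfp516, a partner of LSD1, was the gene called higher, at 8.11 to 9.75 TPM in GMPs, 9.30 to 9.99 in preNeu cells and 19.2 to 25.5 in matNeu cells, a rise by 1.29 (SE 0.20, adjusted p = 0.000113). Among 11 tested transcription factors 3 were called lower and 3 higher, with a median of -0.14 (1 lower and 9 higher when centred). Zfp143, an activator of small nuclear RNA and housekeeping promoters, was at 23.2, 35.8 and 24.8 TPM in GMPs, 44.7, 56.0 and 52.5 in preNeu cells and 49.3, 53.0 and 52.2 in matNeu cells. It rose by 0.87 into preNeu cells (SE 0.18, adjusted p = 0.00189), and its preNeu and matNeu libraries overlapped. Zfp281, a GC-box binding factor, rose by 1.02 from GMP to matNeu (SE 0.23, adjusted p = 0.00169), and its relative Zfp148 was at 27.2 to 31.2, 25.9 to 29.6 and 23.7 to 26.8 TPM and passed no test.

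Markers of other cells moved with the stages as well. Of all tested genes, 54.1% were called lower and 22.8% higher in matNeu cells than in GMPs. The summed level of 6 basophil, mast cell and eosinophil markers was 1362 to 1574 TPM in GMPs, 328 to 506 in preNeu cells and 1.73 to 13.04 in matNeu cells, and all 6 were called lower in matNeu cells than in GMPs. That of 8 monocyte and macrophage markers was 1385 to 1680, 91.1 to 132 and 351 to 478 TPM, with 4 called lower and 3 higher. The 8 lymphoid markers summed to 555 to 701, 259 to 279 and 71.8 to 140 TPM, although 4 of 6 tested were called higher and 2 lower. The 8 erythroid and megakaryocyte markers summed to 38.7 to 57.3, 18.2 to 35.4 and 10.6 to 33.6 TPM, with 3 of 6 tested called lower and 2 higher. The lower ones were Itga2b, which held most of the GMP sum, Klf1 and Pf4. The higher ones were globin genes: Hba-a2 had means of 0.759, 11.3 and 10.8 TPM and Hbb-bs of 2.62, 11.3 and 5.97 TPM at the 3 stages. Their part in the levels of the Zfp genes was not tested.

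Many Zfp genes lie side by side. Clusters of at least 3 Zfp genes less than 250 kb apart numbered 29 and held 126 of the 234 members. Among all 234, changes from GMP to matNeu were below 0 in 183 (78.2%). All 10 members in chr7:29768552-30169750, most of them KRAB genes, had changes below 0 from GMP to matNeu, with a median of -2.07 and a range of -4.13 to -1.22. In chr17:32765496-33358878, where Zfp955a and Zfp955b lie, 8 of 9 did, with a median of -2.77, and in chr7:24081924-24587641 all 5 did, with a median of -3.45. The largest cluster, chr17:21383748-22377281, was close to that share: 12 of its 16 members had changes below 0 and 4 above, with a median of -0.73 against -0.92 for all tested genes. In chr17:55864892-55949500 the 3 members Zfp119a, Zfp119b and Zfp959 all had changes above 0, with a median of 0.62. Members of a cluster are often similar in sequence and share reads, so they are not independent, and no test was made.

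**Figure D4:**
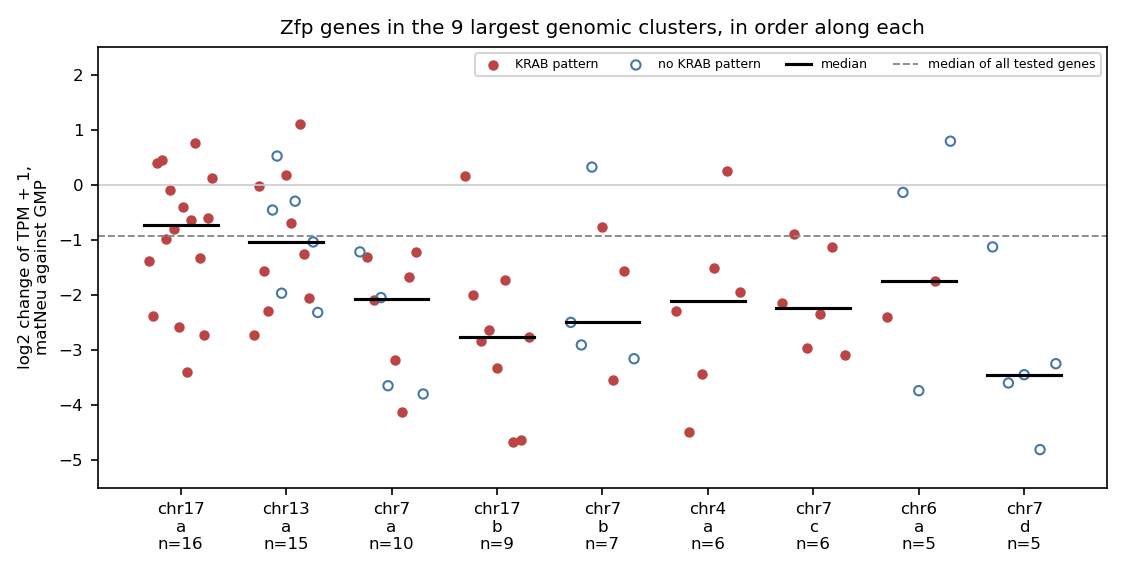
Log2 change of TPM + 1 from GMP to matNeu (vertical axis) of each member in the 9 clusters with the most members, in order along the chromosome within each cluster (horizontal axis, named by chromosome and letter, n = members), filled red with and open blue without a KRAB pattern. Black lines are cluster medians and the dashed line is the median of all tested genes, -0.92. All 10 points of cluster chr7 a lie below 0, and the first cluster, chr17 a, reaches 0.76.

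Promoters were taken as 2000 bases before to 500 bases after the gene start in GENCODE M21 on mm10. A CHD4 summit in wild-type GMPs lay at 12 of the 234 Zfp promoters (5.13%, 95% Wilson interval 2.96 to 8.75), against 1103 of 8594 promoters (12.8%, interval 12.1 to 13.6) of the other protein-coding genes at the floor. Each list was of 1 library, so the intervals cover counting error only and no test between cell types or genotypes was made. In a window that takes in the gene and 10 kb around it, 57 members (24.4%) held a summit, against 44.4% of the others. By expression, 7 of the 48 members highest in matNeu cells (14.6%, interval 7.25 to 27.2) and 5 of the 175 highest in GMPs (2.86%, interval 1.23 to 6.51) had a summit, and the same shares were 20.5% and 8.95% among the other genes. The shares were 4 of 131 KRAB members (3.05%) and 8 of 103 others (7.77%). In Gfi1-/- GMPs 1 member, Zfp608, kept a summit (0.427%, against 2.44% of the others), and that list is shorter as a whole, with 7316 peaks against 35790.

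The 12 genes differed widely in enrichment. Zfp608 led with a fold enrichment of 25.1 at a summit 340 bp after its start, and of 6.08 in Gfi1-/- GMPs. Its RNA was at 4.25, 4.53 and 5.14 TPM in GMPs, 6.37, 7.69 and 6.75 in preNeu cells and 15.9, 12.97 and 18.4 in matNeu cells, with no overlap between the stages. Zfp949 followed with an enrichment of 11.3 at 558 bp before the start, and its RNA went from 9.95, 6.80 and 8.08 TPM in GMPs to 22.9, 13.3 and 20.0 in matNeu cells. Zfp62 (8.82), Zfp277 (6.89, a summit in an exon of the neighbouring gene Dock4), Zfp800 (5.53), Zfp36l2 (5.24, 77 bp after the start), Zfp704 (5.19), Zfp217 (4.96), Zfp516 (4.84), Zfp760 (4.64), Zfp119a (4.13) and Zfp87 (3.89) made up the rest. They did not share a course: Zfp704 was at 11.6, 7.98 and 8.07 TPM in GMPs and at 0.0207, 0.134 and 0.0279 in matNeu cells. Zfp36 had no CHD4 summit at its promoter, and the nearest one lay 203913 bp from its start.

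The letters at 2 of these summits, 201 bases each on GRCm38.p6, show how different they are. The window of Zfp949 (chr9:88547362-88547562, plus strand) held none of the motifs searched, and that of Zfp704 (chr3:9610187-9610387, minus strand) held 2 reversed C/EBP sites, in capitals, at bases 53 to 60 and 66 to 73. Of all 35728 windows of this length at CHD4 summits in wild-type GMPs, 17.3% held a C/EBP site.
Zfp949: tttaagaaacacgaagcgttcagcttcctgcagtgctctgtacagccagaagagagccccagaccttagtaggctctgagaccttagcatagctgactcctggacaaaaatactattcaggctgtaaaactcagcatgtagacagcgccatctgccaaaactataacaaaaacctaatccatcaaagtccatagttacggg
Zfp704: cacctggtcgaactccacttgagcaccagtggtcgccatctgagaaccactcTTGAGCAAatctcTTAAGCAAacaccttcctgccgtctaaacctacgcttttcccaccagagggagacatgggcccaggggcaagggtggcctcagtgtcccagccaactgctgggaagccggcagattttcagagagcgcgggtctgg

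H3K4me2 was present at most Zfp promoters at every stage. A peak overlapped the promoter of 215 members (91.9%) in GMPs, 222 (94.9%) in preNeu cells and 220 (94.0%) in matNeu cells, against 90.3%, 93.2% and 92.5% of the other genes at the floor. The share in GMPs rested on weak peaks: at a −log10 q-value of 5 or more it was 24.4%, against 36.6% of the other genes, while the preNeu and matNeu shares were 92.7% and 92.3%. The mark was on at all 3 stages for 215 members, in preNeu and matNeu cells for 5, in preNeu cells alone for 2 and at no stage for 12, so no member with a peak in GMPs was without one later. Of the other genes at the floor, 89.1% had the mark at all 3 stages. Of the 175 members highest in GMPs, 163 (93.1%) had it at all 3 stages, against 91.2% of the other genes highest in GMPs. Zfp735 and Zfp831, higher in matNeu cells, were among the 19 members without a peak in GMPs. The peaks of Zfp genes were narrower than those of the other genes, with median widths of 1910, 2592 and 2070 bp at the 3 stages against 2287, 3536 and 2735 bp. The CCCH genes had peaks wider than these medians: 8180, 16148 and 16097 bp at Zfp36, 3292, 11396 and 12055 bp at Zfp36l2, and 5417, 6660 and 10693 bp at Zfp36l1. Wide peaks were not particular to them. The 26 members called higher in matNeu cells than in GMPs, CCCH genes included, had medians of 2508, 4752 and 4188 bp. Zfp422, which fell, had a peak of 3410 bp in GMPs, wider than that of Zfp36l2. The median fold enrichment of members' peaks was 3.42 in GMPs, 9.79 in the preNeu list and 8.37 in the matNeu list, while that of the other genes was 3.57, 10.6 and 8.54, so the lists differ in enrichment as a whole and are not compared between stages here.

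An ATAC-seq peak overlapped 128 Zfp promoters (54.7%, interval 48.3 to 61.0), against 69.2% (68.2 to 70.1) of the other genes at the floor. The share was 45.0% among KRAB members (interval 36.8 to 53.6) and 67.0% among the others (57.4 to 75.3). It was 47.4% for members highest in GMPs, 9 of 11 for those highest in preNeu cells, and 75.0% for those highest in matNeu cells. A −log10 q-value of 5 or more left 24.4% of members, against 43.1% of the other genes.

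**Figure D5:**
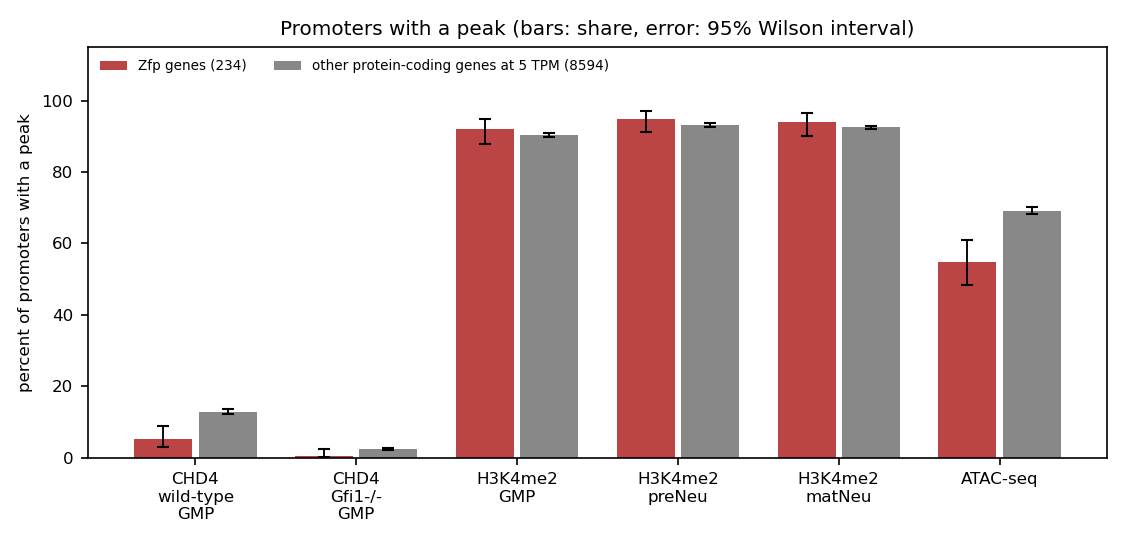
Percent of promoters with a peak (vertical axis) for the 234 Zfp genes (red) and 8594 other protein-coding genes at 5 TPM (grey), in the 6 peak lists on the horizontal axis, with 95% Wilson intervals as error bars. The red bar is lower for CHD4 in wild-type GMPs (5.13% against 12.8%) and for ATAC-seq (54.7% against 69.2%), and the H3K4me2 bars lie between 90.3% and 94.9% in both sets.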

How the data were processed

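RNA-seq gave 9 libraries, 3 each of GMP, preNeu and matNeu cells, grouped by their titles, which for 13 of the 18 samples differ from the cell type or antibody given elsewhere in the labels. The authors deposited TPM values per gene, and each library sums to the same total. How they were computed is not clear, since the submitters' processing notes name kallisto 0.44.0 and the methods name Tophat, HTSeq and DESeq. The authors deposited peak lists, called per library with MACS2 2.1.0 after BWA 0.7.17 and Trimmomatic 0.36 (mm10), that give a fold enrichment ratio and a −log10 q-value for each peak. The GFI1 and H3K4me3 lists were not used here, because they hold peaks beyond the ends of the mm10 chromosomes.

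From the TPM values, log2(TPM + 1) was fitted with limma 3.58.1 (R 4.3.3) with a variance trend, in 1 fit over the 9 libraries and the 13061 genes that reached 1 TPM in 3 or more libraries, with 2-sided tests and Benjamini-Hochberg adjustment over all of them at 0.05. On simulated data with 200 changed genes among 13061, drawn for matNeu against GMP, the fit recovered 83 of 109 genes changed by 2 on the log2 scale and 25 of 91 changed by 1, with 9 false among 117 calls. Far more genes were called in the data, 7065 lower and 2976 higher. The simulated rates therefore do not give the sensitivity of the fit to the data. Tables were made with Python 3.11.15 and pandas 2.3.3. Intervals are 95% Wilson intervals and cover counting error only. KRAB, C2H2 and CCCH patterns were searched in coding sequences translated from GENCODE M21, which replaced the planned protein table. Sequence words of 31 bases marked genes that share reads. A summit of CHD4, or any base of an H3K4me2 or ATAC-seq peak, counted as at a promoter.

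The members and all gene lists were chosen with earlier results of these data known. The genes named are those of the Zfp lists, the 6 members with the largest and the smallest change in each comparison, the 5 with the highest mean at each stage, all called higher in matNeu cells than in GMPs, those with the strongest CHD4 summits, and those at the floor, 67 in all. Genes at 0 in every matNeu library, the course and cluster examples and Chd4 were added after their values were seen. The ZFP143 site was searched in a longer form first and shortened after its share was seen. Same-numbered libraries did not deviate together (correlations of -0.039 to 0.123), so numbers were not taken as pairs. Alternatives were other scalings, pseudocounts, floors and filters, single libraries left out, a minimum change, other promoter windows and stricter peaks. After the data were seen, 2 were added: members by GENCODE gene type, and members that share under 20% of their words.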

Additional observations from a re-analysis of the deposited data

How the results depend on the processing

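The scaling of the libraries and a required size of change moved the counts of called members most. Centred on the median of each library, the members lower and higher were 89 and 33 from GMP to preNeu, 37 and 86 from preNeu to matNeu, and 98 and 81 from GMP to matNeu, and their median change from preNeu to matNeu turned to 0.25. The median of all tested genes was then 0.45, and their called shares under each scaling stand beside the counts above. Upper-quartile scaling gave 20 higher from GMP to preNeu and 57 higher from GMP to matNeu, and rescaling to protein-coding genes gave 19 higher from GMP to preNeu. When a log2 change over 1 was required, 56 were lower and 0 higher (limma) from GMP to preNeu, 26 lower and 10 higher from preNeu to matNeu, and 8 higher from GMP to matNeu. Leaving out 1 library at a time gave 122 to 148 lower and 7 to 11 higher from GMP to preNeu, 73 to 93 and 33 to 42 from preNeu to matNeu, and 149 to 164 and 23 to 27 from GMP to matNeu. The cause of these moves was not tested.

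The rise of Zfp36 from GMP to preNeu (1.20) and of Zfp36l2 from GMP to matNeu (1.06) did not pass a required change of 1, nor did the fall of Zfp36l2 from GMP to preNeu (-1.08), which was also not called when centred (-0.45), with the upper quartile (-0.60) or when rescaled (-0.70). The change of Zfp36l1 from GMP to preNeu was called when centred (1.41), when rescaled (1.20) and without preNeu replicate 3, over a range of 0.46 to 1.03 with single libraries left out. Reversals are given for changes called in the main fit or under the scaling named, and sign changes without either call are left out. From GMP to matNeu, directions reversed when centred for Zfp131 (1.06), Zfp263 (1.26), Zfp382 (0.17), Zfp445 (0.18), Zfp638 (0.95), Zfp68 (0.51), Zfp809 (0.89), Zfp830 (0.17) and Zfp148 (1.18). From GMP to preNeu they reversed for Zfp148 (0.50), Zfp710 (0.51) and Zfp740 (0.09). From preNeu to matNeu they reversed for Zfp148 (0.68), Zfp445 (0.09), Zfp68 (0.21), Zfp706 (0.04) and Zfp809 (0.62). With the upper quartile they reversed from GMP to matNeu for Zfp131 (0.56), Zfp148 (0.66), Zfp263 (0.77), Zfp68 (0.01) and Zfp809 (0.38). Of 3781 values of 67 named genes over all alternatives, 3395 kept their direction and their side of the threshold, 69 changed sign without a call on either side (18 of them when centred), 212 lost and 83 gained a call, and 22 reversed.

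With the replicate number as a block, 140 members were lower and 9 higher from GMP to preNeu, 83 and 41 from preNeu to matNeu, and 161 and 26 from GMP to matNeu, and no call of Zfp36, Zfp36l1 or Zfp36l2 changed. Members chosen at 2 or 10 TPM, by GENCODE gene type or by shared words kept all counts within 1.5 times. The H3K4me2 share in GMPs and the ATAC-seq share were both 24.4% at a −log10 q-value of 5 or more. With every transcript start used, H3K4me2 shares were 94.9% in GMPs and 96.6% in matNeu cells. When a peak had to cover 50% of the promoter, the H3K4me2 shares were 33.3%, 56.8% and 41.0% in GMP, preNeu and matNeu cells. The ATAC-seq share was 61.0% for members at 10 TPM. Read depth is unknown, so low values and values listed at 0 carry no interval.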

Other observations

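The type column of the expression table left out some Zfp genes. It gives 1 type per gene, and 46 Zfp genes typed otherwise there are protein-coding in GENCODE M21. Of these, 37 reached 5 TPM at a stage and were tested, and 29 were called lower and 3 (Zfp597, Zfp688 and Zfp697) higher in matNeu cells than in GMPs, against 54.1% and 22.8% of all tested genes. Zfp207, which encodes a kinetochore and splicing protein, was the most abundant among them, at 444, 490 and 418 TPM in GMPs, 259, 328 and 324 in preNeu cells and 94.9, 107 and 128 in matNeu cells. That is more RNA in GMPs than any of the 234 genes had. The libraries of the 3 stages did not overlap, and the fall from GMP to matNeu was 2.04 on the log2 scale (SE 0.14, limma adjusted p = 2.19e-07).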
